A study of Danio rerio with 17 samples.

Results

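Histones and chromatin regulators were followed across the sex-by-diet groups of a zebrafish liver study. The genes were chosen by name: histones, high mobility group proteins, nucleosome remodellers, histone-modifying enzymes, DNA methyltransferases, their readers and histone chaperones. Their symbols were matched to the single gene symbol that the array's annotation gives a probe set, and the probe set with the highest mean over the 17 arrays stood for each gene. This gave 104 genes of the 8793 genes with such a symbol, from 145 probe sets. RNA from the liver of 17 fish was measured on Affymetrix zebrafish arrays, with 1 array per fish. The groups were 5 females fed 25% dietary carbohydrate (fish 3, 20, 24, 49 and 51) and 5 females fed 0% (fish 7, 8, 10, 25 and 27). The males were 3 fed 25% (fish 52, 53 and 54) and 4 fed 0% (fish 11, 26, 30 and 66). The series description states 4 males on 25% and 3 on 0%, and the sample labels were followed here. The labels used here give no strain, age or genotype, and name no other treatment that the groups share.

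Nuclear DNA is wrapped around core histones, and linker histones bind where it enters and leaves this spool. Chaperones carry histones to DNA, remodellers move or evict nucleosomes with energy from ATP, and enzymes add or remove acetyl and methyl groups that other proteins then read. In a resting adult liver most cells do not divide, so bulk histone supply is modest there. A growing oocyte stores histones, histone chaperones and DNA methyltransferase for the early embryo. Most replication-dependent histone mRNAs end in a stem-loop without a poly(A) tail, while oocytes and embryos also hold polyadenylated ones. The 3′ labelling named in the protocol starts from the poly(A) tail.

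Hepatocyte genes were high on every array, with a mean of 24 measured genes between 11.23 and 11.81 log2 units. This shows liver RNA in each sample, and does not show that it was the only tissue. The deposited values are log2 expression, with array medians between 3.52 and 3.61. No detection calls came with them. Levels at or below the array median may therefore be background, and a difference that starts from one has no exact size. In 3 males, fish 11, 52 and 66, the mean of 18 intestinal epithelium genes was 7.98, 8.47 and 7.85, against at most 5.59 on every other array. The hepatocyte mean was 11.41, 11.23 and 11.32 in those 3 fish, 11.73 to 11.81 in the other males and 11.27 to 11.53 in females. The mean of 20 ovary and oocyte genes (egg coat and other oocyte genes) lay between 5.33 and 6.23 in females on 25% and between 3.56 and 4.71 in females on 0%. In males it was 3.2, 3.32 and 3.51 on 25% (fish 52, 53 and 54) and spanned 3.24 to 3.54 on 0%. Exocrine pancreas genes varied within every group, with a mean of 17 genes from 6.30 to 11.38 and 0 past the test in any comparison (1 at an unadjusted p under 0.05 for sex, 0 otherwise). Their median difference for carbohydrate was 1.38 in females, with all 17 above 0, and -1.38 in males, with 0 above 0. The highest means were in male fish 11 (11.38) and 66 (11.15), both on 0%. Of 24 hepatocyte genes 6 were lower in females and 0 changed with carbohydrate, of 13 testis and germ cell genes 3 were higher in females and 1 rose with carbohydrate in them, of 14 red blood cell genes 1 was higher and 1 lower in females, and of 19 leukocyte genes 0 passed (4 unadjusted for sex). Of all probe sets 8.02% were higher and 5.57% lower in females, and 1.90% rose and 0.194% fell with carbohydrate in them. In bulk RNA such as this, more cells of a type and more RNA per cell cannot be told apart.

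The median spread of the 104 chromatin genes within groups was 0.206 log2 units, against 0.182 over all 15502 probe sets tested. On all 17 arrays 67 of the 104 lay above the array median and 16 at or below it. Differences were tested with limma, and p values were adjusted over all probe sets with a threshold of 0.05. Between the sexes, averaged over the diets, 14 were higher and 4 lower in females. That is 17.3% of the 104, against 13.6% of all probe sets tested (8.02% higher and 5.57% lower). All probe sets include dimmer ones of the same genes and ones without a symbol. Of the 8793 genes, each with its brightest probe set, 833 were higher and 547 lower. At an unadjusted p under 0.05, 31.7% of the 104 differed by sex, against 32.5% of the 8793, so that share was near the background. With each array centred on its median the split of the 104 was 11 higher and 7 lower. All 10 females stood above all 7 males for 3 genes (npm2b, setdb1a and dnmt3bb.2), 2.88% against 1.34% of all probe sets, and below them for 0, where 1.63% of all probe sets separated in either direction. Carbohydrate raised 5 in females (hist1h2a6, dnmt1, nasp, npm2b and smarcad1a), 4.81% against 2.1% of all probe sets (1.90% higher), and lowered 0 in limma (0.194% of all probe sets). Of the 8793 genes 193 rose and 19 fell in limma. At an unadjusted p under 0.05, 15 of the 104 were higher and 7 lower on 25%. That is 21.2%, against 12.8% of all probe sets and 14.3% of the 8793 genes. The median difference of the 104 was 0.04 between the sexes and -0.02 for carbohydrate in females, as against 0.01 and -0.03 over all probe sets. The set thus held a few large differences around a centre near 0.

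**Figure D1:**
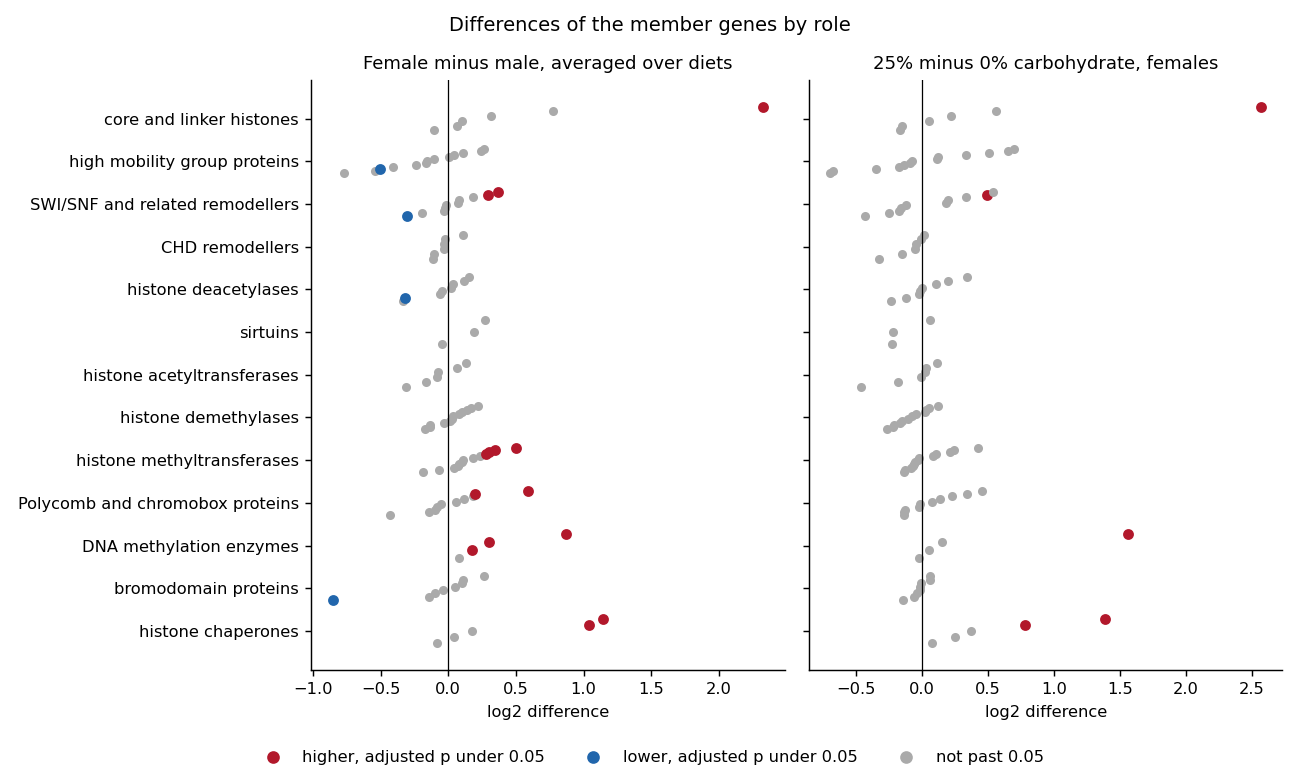
Log2 differences of the 104 chromatin genes, 1 point per gene, grouped by role; the left panel is female minus male averaged over diets, and the right panel is 25% minus 0% carbohydrate in females. Red and blue points passed an adjusted p of 0.05, and the farthest points to the right are hist1h2a6 at 2.33 and 2.57.

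Of the histones chosen by name, hist1h2a6, an H2A core histone gene, stood apart. Its log2 expression in females on 25% was 6.54 in fish 3, 6.37 in fish 20, 7.82 in fish 24, 7.05 in fish 49 and 8.76 in fish 51. In females on 0% it was 4.02 in fish 7, 6.55 in fish 8, 3.54 in fish 10, 5.60 in fish 25 and 3.98 in fish 27. In males it lay between 3.50 and 3.62 on 25% and between 3.56 and 4.44 on 0%. It was at or below the array median in 2 of 3 males on 25% and in 1 of 5 females on 0%. Differences that start from these groups therefore have no exact size. All females on 25% were thus high, and females on 0% were split, with fish 8 inside the range of the 25% group and fish 7, 10 and 27 inside that of the males. The carbohydrate difference in females was 2.57 ± 0.54 (SE; 5 and 5 fish; adjusted p = 0.0164), and the sex difference was 2.33 ± 0.42 (10 females and 7 males; adjusted p = 0.00196). Its probe set carries the suffix that Affymetrix uses for probes that may also bind related transcripts, and H2A genes come in near-identical copies, so the value may sum several genes. The carbohydrate call was lost without female fish 24, 7, 10 or 27 (highest adjusted p = 0.057). It was also lost in a fit of the females alone (adjusted p = 0.086).

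The other 5 histones chosen by name did not pass in any comparison. The oocyte linker histone h1m lies outside the name rule and is given below. Histh1l1, a linker histone gene, averaged 7.12 in females on 25% and 7.27 in females on 0%, against 6.35 and 6.50 in males on the same diets (sex difference 0.77, adjusted p = 0.0839). H3f3d, which encodes the replacement histone H3.3, differed by -0.10 between the sexes and lay between 7.27 and 8.70 over all fish. H2ax, the variant phosphorylated at DNA breaks, averaged 3.59 and 3.54 in females and 3.47 in males on both diets. H2az2b, an H2A.Z variant gene, stood 0.56 higher on carbohydrate in females (adjusted p = 0.361), with groups that overlapped. For h3f3d and h2az2b the highest males were fish 11, 52 and 66, whose intestinal genes were high. Hist2h2l differed by 0.31 between the sexes, with all females on 25% (7.05 to 7.67) above all males on 25% (6.80 to 6.98) and wide overlap on 0%.

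Among 5 histone chaperones, nasp and npm2b were higher in females and rose with carbohydrate in them. Of all probe sets 8.02% were higher in females and 1.90% rose. Nasp binds linker histones and the histone H3 and H4 pair and keeps a reserve of them in the cell. Its values in females on 25% were 6.60, 6.40, 6.58, 6.83 and 7.46 in fish 3, 20, 24, 49 and 51. In females on 0% they were 5.59, 5.93, 5.02, 5.47 and 4.95 in fish 7, 8, 10, 25 and 27. Males lay between 4.57 and 5.32 on 25% and between 4.74 and 5.23 on 0%. All females on 25% therefore stood above every other fish, while females on 0% overlapped with males. The carbohydrate difference in females was 1.39 ± 0.22 (adjusted p = 0.00159) and the sex difference 1.14 ± 0.17 (adjusted p = 0.000483).

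Npm2b encodes nucleoplasmin, a chaperone of H2A and H2B that is stored in eggs. It stood at 5.13, 4.94, 5.51, 5.31 and 5.58 in females on 25% (fish 3, 20, 24, 49 and 51). It stood at 4.50, 4.93, 4.36, 4.42 and 4.36 in females on 0% (fish 7, 8, 10, 25 and 27). In males it lay between 3.67 and 4.02 on 25% and between 3.65 and 4.09 on 0%, so all 10 females were above all 7 males, and all females on 25% were above all on 0%. Npm2b rose by 0.78 ± 0.14 with carbohydrate in females (adjusted p = 0.00504) and was 1.04 ± 0.11 higher in females than in males (adjusted p = 3.1e-05). The nucleolar relatives did not pass: npm1a differed by 0.37 in females and 0.54 in males between the diets, npm3 by 0.25 and 0.22, and npm1b by 0.07 and 0.35.

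Dnmt1 copies DNA methylation onto the new strand after replication. Females on 25% had 4.84, 5.10, 5.65, 5.50 and 5.82 in fish 3, 20, 24, 49 and 51. Females on 0% had 3.65, 4.15, 3.58, 3.94 and 3.75 in fish 7, 8, 10, 25 and 27. Males had 3.75, 3.64 and 3.75 on 25% (fish 52, 53 and 54) and 3.72, 3.85, 3.65 and 3.70 on 0% (fish 11, 26, 30 and 66). The females on 25% stood above every other fish. The other groups averaged 3.81, 3.72 and 3.73, little above the array median. The carbohydrate difference was 1.56 ± 0.16 in females (adjusted p = 5.76e-05) and -0.01 in males. Dnmt1 was the 1 chromatin gene of 104 whose carbohydrate difference itself differed between the sexes (by 1.58 ± 0.25, adjusted p = 0.00941), 0.962% of the genes against 0.697% of all probe sets (0.00645% with a smaller difference in females). Without male fish 11, 52 and 66, left out after earlier results were known, that interaction was 1.62 (adjusted p = 0.115), while the carbohydrate difference in females kept its call (adjusted p = 0.000753).

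Of the other DNA methyltransferases, dnmt3bb.2 and dnmt3bb.3 were higher in females, by 0.30 ± 0.05 (adjusted p = 0.00105) and 0.17 ± 0.05 (adjusted p = 0.0409). These enzymes set methylation on unmethylated DNA. For dnmt3bb.2 all females (2.45 to 2.76) lay above all males (2.12 to 2.32). Both genes were at or below the array median on all 17 arrays, which leaves their levels open to background. Dnmt3ba differed by 0.08 and did not pass.

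**Figure D2:**
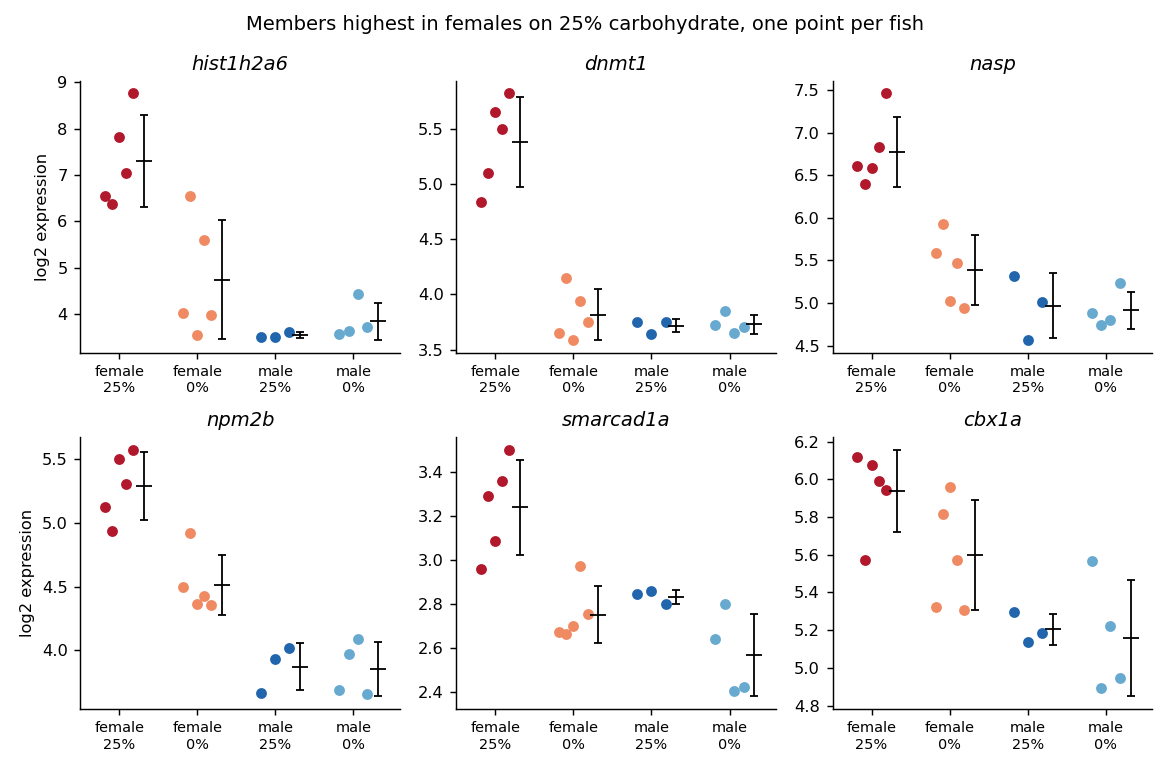
Log2 expression of hist1h2a6, dnmt1, nasp, npm2b, smarcad1a and cbx1a, with 1 point per fish in each of the 4 groups and, beside the points, the group mean with its SD. For dnmt1, nasp and npm2b all 5 females on 25% carbohydrate lie above all 5 females on 0%, and for npm2b every female lies above every male.

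Smarcad1a, a helicase of the SWI/SNF superfamily that handles nucleosomes near DNA breaks and after replication, averaged 3.24 ± 0.22 in females on 25% and 2.75 ± 0.13 in females on 0% (SD, n = 5 each). It rose by 0.49 ± 0.11 (adjusted p = 0.0192), with levels at or below the array median on every array. The call was lost without female fish 49, 51, 7, 8, 10 or 27, each left out alone (highest adjusted p = 0.0609), and in a fit of the females alone (adjusted p = 0.0546). Smarcad1a was also 0.30 ± 0.08 higher in females than in males (adjusted p = 0.028), a call lost without male fish 52, 53, 54, 30 or 66 (highest adjusted p = 0.0558). Cbx1a, a heterochromatin protein that binds methylated histone H3, averaged 5.94 ± 0.22 in females on 25% and 5.60 ± 0.29 in females on 0% (SD, n = 5 each). In males it averaged 5.21 ± 0.08 on 25% (SD, n = 3) and 5.16 ± 0.31 on 0% (SD, n = 4). Cbx1a was 0.59 ± 0.12 higher in females (adjusted p = 0.00456), while its carbohydrate difference in females, 0.34, did not pass (adjusted p = 0.36).

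Ovary and oocyte genes also rose with carbohydrate in females. Of the 20 genes 15 rose with carbohydrate in females and 0 in males, and 19 were higher in females than in males. The shares of all probe sets were 1.90%, 0.0968% and 8.02%. The mean of the list was 5.72 in females on 25%, 3.98 in females on 0%, 3.34 in males on 25% and 3.41 in males on 0%. Within females on 0%, fish 8 and 25 had the highest marker means, 4.71 and 4.33, against 3.69, 3.56 and 3.63 in fish 7, 10 and 27. The same 2 fish had the highest hist1h2a6 (6.55 and 5.60) and dnmt1 (4.15 and 3.94) of their group. Fish 8 also had the highest nasp (5.93) and npm2b (4.93), while fish 25 was in the middle for both (5.47 and 4.42). In females on 0% smarcad1a did not follow this order: fish 25 had the highest value (2.97) and fish 8 the lowest (2.66), all at or below the array median. Within females on 25%, fish 51 had the highest marker mean (6.23) and the highest hist1h2a6, dnmt1, nasp, npm2b and smarcad1a. In males 12 of the 20 markers on 25% and 11 on 0% lay at or below the array median on every array, as did 5 in females on 0% and 2 in females on 25%. Of 45 cell division genes 27 were higher in females averaged over the diets and 24 on 25%, where 8.02% and 3.55% of all probe sets were. With carbohydrate 17 of the 45 rose in females, where 1.90% of all probe sets did. The mean of the 45 in females lay between 4.09 and 4.62 on 25% and between 3.71 and 3.92 on 0%. Fish 8 and 25 had the highest cell division means of the females on 0% as well (3.92 and 3.84). Fish 51 had the highest of the females on 25% (4.62), so the order of these fish was shared by both lists. The part of ovary tissue or dividing cells in these chromatin results was not tested.

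**Figure D3:**
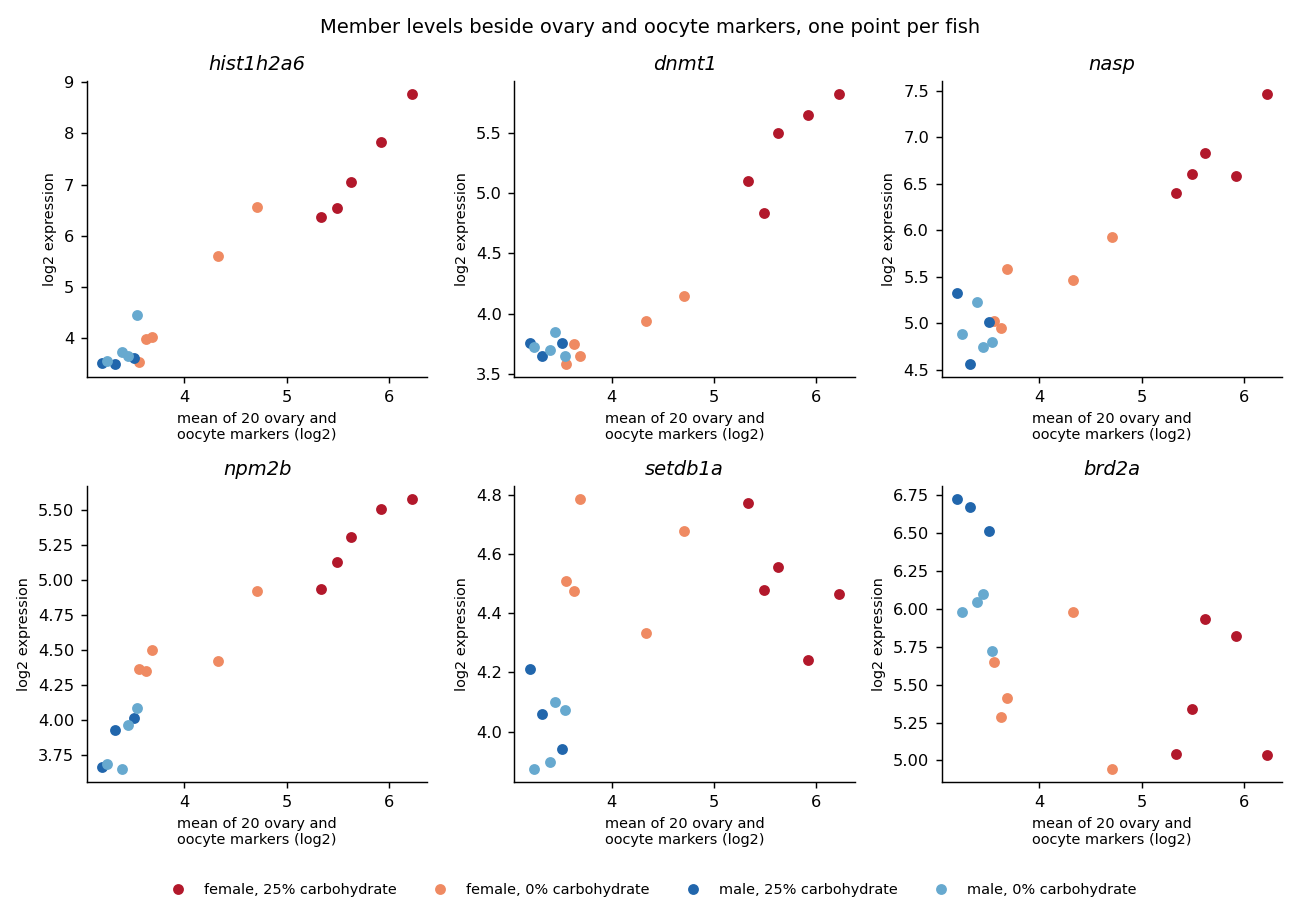
Log2 expression of 6 chromatin genes against the mean log2 expression of 20 ovary and oocyte markers, 1 point per fish, coloured by group. The females on 25% carbohydrate, with marker means of 5.33 to 6.23, hold the highest levels of dnmt1, nasp and npm2b, and for hist1h2a6 female fish 8 on 0% (6.55) lies among them, while setdb1a and brd2a do not follow that order.

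A second set of chromatin genes differed between the sexes without a passed carbohydrate difference. Setdb1a, which methylates lysine 9 of histone H3, had a lowest value of 4.24, a median of 4.49 and a highest value of 4.78 in females, against 3.87, 4.06 and 4.21 in males. All 10 females stood above all 7 males. The difference was 0.50 ± 0.08 (adjusted p = 0.000805), with 0.43 on 25% and 0.57 on 0%, and carbohydrate moved it by -0.05 in females (adjusted p = 0.891). Females on 25% averaged 4.50 and females on 0% averaged 4.55. A second, dimmer setdb1a probe set differed by 0.15 and did not pass (adjusted p = 0.0842).

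Of 13 genes classed by name as histone methyltransferases, 4 were higher in females (setdb1a, setd4, kmt2a and kmt2ba), where 8.02% of all probe sets were. This class held setd3, and ezh2 was classed with the Polycomb genes. Kmt2a and kmt2ba encode trithorax-type enzymes that methylate lysine 4 of histone H3. Kmt2a had a lowest value of 3.58 and a highest of 4.10 in females, against 3.42 and 3.71 in males, a difference of 0.30 ± 0.08 (adjusted p = 0.0192). In 3 of 7 males kmt2a was at or below the array median. Kmt2ba differed by 0.28 ± 0.08 (adjusted p = 0.0395) and setd4, a SET domain methyltransferase gene, by 0.34 ± 0.10 (adjusted p = 0.0352). When fish were left out singly, kmt2ba failed the test in 11 of 17 cases (highest adjusted p = 0.1), without female fish 3, 20, 24, 51, 7, 10 or 25 or male fish 52, 53, 11 or 66. Setd4 failed in 10 (highest adjusted p = 0.0997), without female fish 24, 51, 7, 8 or 25 or male fish 52, 53, 11, 30 or 66. Kmt2a failed without male fish 52 (adjusted p = 0.0532). Setd3, which in mammals methylates a histidine of actin, differed by 0.08 and did not pass.

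Remodellers split. Smarcc1a, a scaffold subunit of the SWI/SNF complex, averaged 3.92 in females and 3.57 in males, with overlap (difference 0.36 ± 0.10, adjusted p = 0.0222), and lost its call without male fish 53 (adjusted p = 0.0646). It was at or below the array median in 3 of 7 males and 1 of 10 females. Smarcb1a, another core subunit, was lower in females: 5.33 to 6.02 in females against 5.83 to 6.03 in males (-0.31 ± 0.09, adjusted p = 0.0298). That call was lost without female fish 7 or male fish 53, 54, 30 or 66, each left out alone, and under quantile normalization (-0.19, adjusted p = 0.19). Smarcd1 varied more between fish than most, from 7.66 to 8.61 in females on 25%, and its values in males on 25% were 7.94, 9.68 and 8.82 in fish 52, 53 and 54. Male fish 11, 52 and 66, whose intestinal genes were high, had the lowest values of the males on their diets (7.05, 7.94 and 7.73). In a limma fit without them, with 2 males per diet, smarcd1 was lower in females on 25% (-1.20, adjusted p = 0.0407). It was not called over all 17 fish. The CHD remodellers had 0 of 6 past in limma for sex averaged over diets (13.6% of all probe sets) and 0 at an unadjusted p under 0.05 (29.1%). For carbohydrate 0 of the 6 passed in either sex. At an unadjusted p under 0.05 there were 2 in males (33.3%, against 8.18% of all probe sets) and 1 in females (16.7%, against 12.8%). Chd4b, of the NuRD deacetylase complex, differed by 0.11 between the sexes. A second, dimmer chd2 probe set was lower in females on 25% (-0.28, adjusted p = 0.0411). Its mean of 3.11 was below the array medians, so it may be background. The brighter chd2 probe set differed by -0.008 in that comparison (adjusted p = 0.986).

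Brd2a had the largest negative difference of the 4 genes called lower in females. It encodes a BET protein that binds acetylated histones. Females on 25% had 5.34, 5.04, 5.82, 5.93 and 5.03 in fish 3, 20, 24, 49 and 51, and females on 0% had 5.41, 4.95, 5.65, 5.98 and 5.29 in fish 7, 8, 10, 25 and 27. Males on 25% had 6.72, 6.67 and 6.51 in fish 52, 53 and 54, and males on 0% had 5.98, 6.10, 5.72 and 6.04 in fish 11, 26, 30 and 66. The 3 males on 25% were highest, and females on both diets overlapped. The sex difference was -0.85 ± 0.16 (adjusted p = 0.00199), -1.20 ± 0.23 on 25% (adjusted p = 0.00462) and -0.51 ± 0.21 on 0% (adjusted p = 0.211). In males brd2a stood 0.68 ± 0.24 higher on 25% with no overlap, and this did not pass (adjusted p = 0.435). The other 3 brd2a probe sets, which were dimmer, differed between the sexes by 0.10, 0.04 and -0.21 and did not pass, so the call rests on 1 of 4 probe sets.

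Hdac10, a class II deacetylase that also acts on polyamines, ranged over 4.21 to 4.91 in females and 4.77 to 5.03 in males (-0.32 ± 0.08, adjusted p = 0.0146). Hmgb1b, an HMG box protein that bends DNA, ranged over 4.40 to 5.26 in females and 4.84 to 5.89 in males (-0.50 ± 0.15, adjusted p = 0.0359). Its 3 highest males were fish 11 (5.89), 66 (5.55) and 52 (5.54), the same fish whose intestinal genes were high. Without those 3 the hmgb1b difference was -0.23 (adjusted p = 0.312) and that of hdac10 -0.32 (adjusted p = 0.064). Their part in the hmgb1b difference was not tested further. With all 17 fish, hmgb1b lost its call in 10 of the 17 cases with 1 fish left out (highest adjusted p = 0.108), without female fish 3, 20, 24, 51, 7 or 8 or male fish 52, 53, 11 or 66. Without those 3 males brd2a kept its call (-0.81, adjusted p = 0.0264), as did hist1h2a6, nasp, npm2b, dnmt1, dnmt3bb.2, cbx1a and setdb1a, and the other 10 did not pass. In that fit 8 of the 104 genes were higher and 2 lower in females, and 9.37% of all probe sets passed. Kat8, an acetyltransferase of histone H4, was the other lower gene there (-0.52, adjusted p = 0.00275), and was not called over all 17 fish (-0.31). The 3 males left out had the lowest kat8 of the males, 4.72 in fish 11, 4.67 in fish 52 and 4.43 in fish 66. The other males had 5.01 to 5.26. Hmgn1a, a nucleosome binding protein, was called higher in the fit without those 3 (0.74, adjusted p = 0.0325), against 0.26 over all fish.

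**Figure D4:**
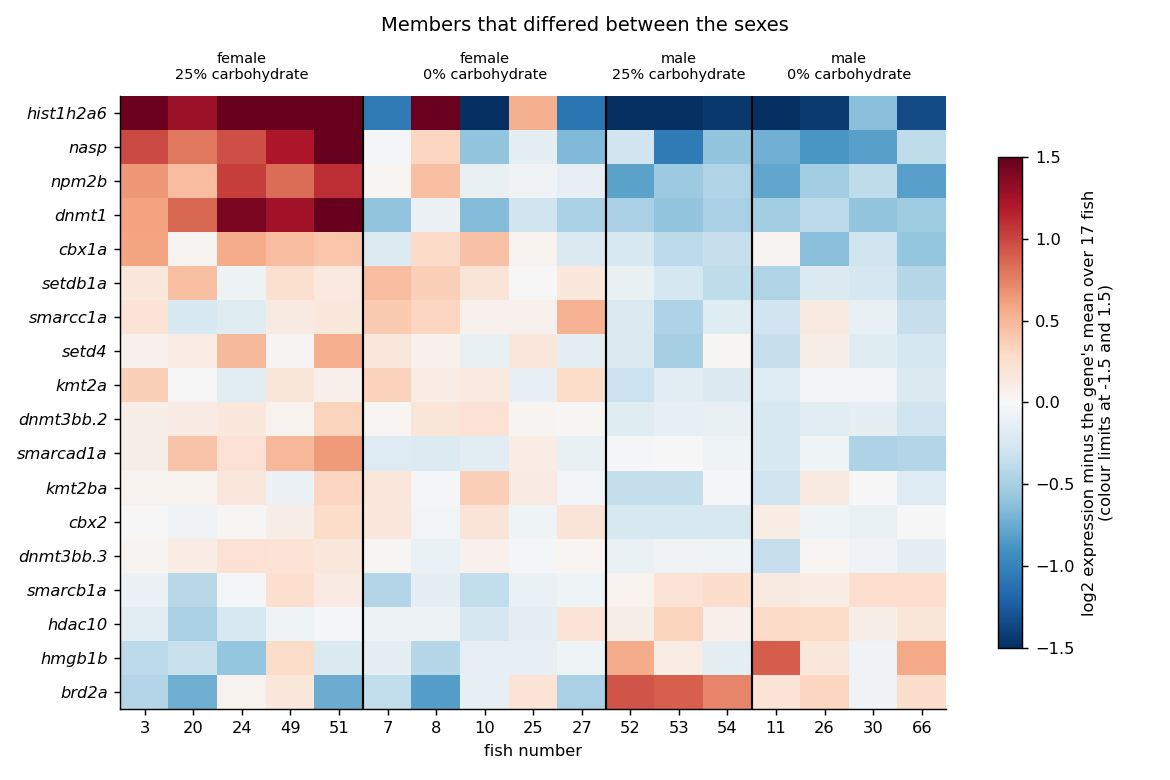
Log2 expression of the 18 chromatin genes that differed between the sexes, each minus its mean over the 17 fish, with genes in rows from highest to lowest difference and fish in columns by group. Colours saturate at the limits of the scale, and females on 25% carbohydrate hold the strongest red in the top 4 rows, joined by female fish 8 on 0% for hist1h2a6, and males on 25% in the bottom row, brd2a.

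**Figure D5:**
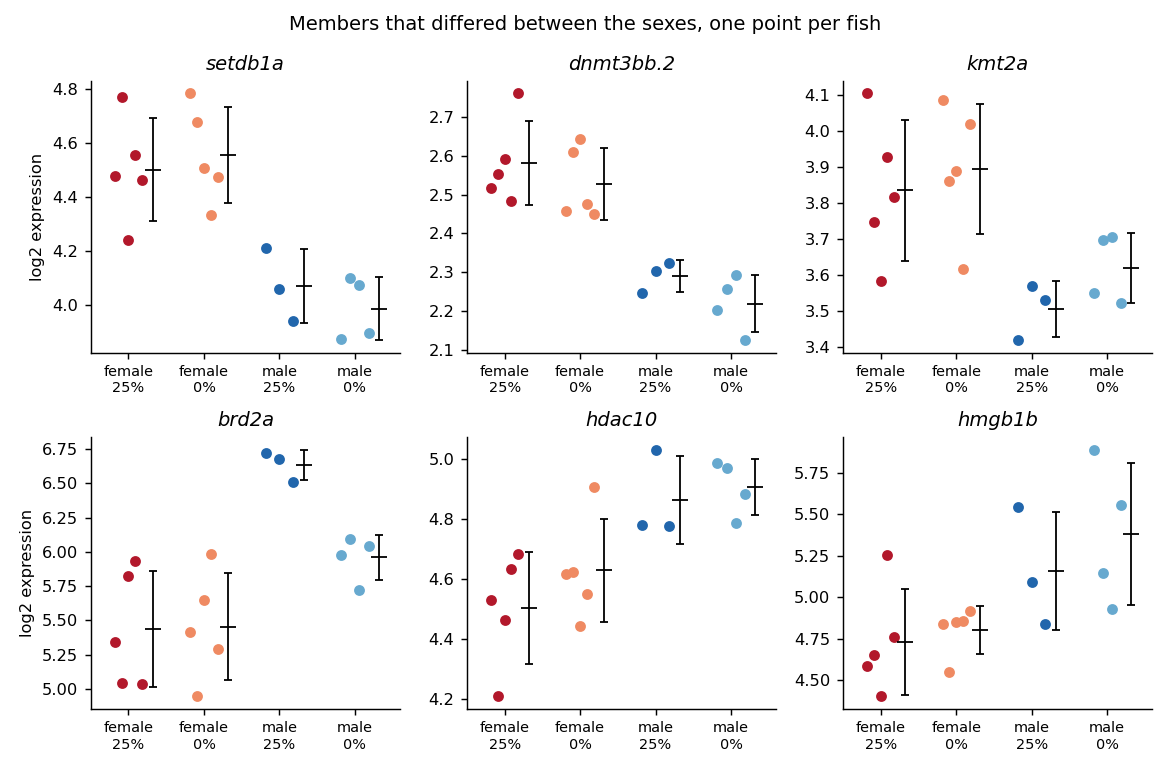
Log2 expression of setdb1a, dnmt3bb.2, kmt2a, brd2a, hdac10 and hmgb1b, 1 point per fish in each of the 4 groups, with the group mean and SD beside the points. For setdb1a and dnmt3bb.2 all females lie above all males, while kmt2a, hdac10 and hmgb1b overlap, as does brd2a between females and males on 0%.

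Within each diet the sexes were compared to see where these differences lay. On 25% carbohydrate, where 370 of the 8793 genes were higher and 133 lower in females, 6 of the 104 were higher and 1 lower. That is 6.73%, against 4.91% of all probe sets (3.55% higher and 1.36% lower). The groups did not overlap for 16 genes, 13 above (12.5% against 6.95% of all probe sets) and 3 below (2.88% against 4.50%). The 6 were hist1h2a6 (3.76 ± 0.62), nasp (1.81 ± 0.25), dnmt1 (1.66 ± 0.18), npm2b (1.42 ± 0.16), cbx1a (0.73 ± 0.18) and dnmt3bb.2 (0.29 ± 0.07), and the lower gene was brd2a. The call of cbx1a was lost without female fish 3 or male fish 52, 53 or 54 (highest adjusted p = 0.092), and that of dnmt3bb.2 without female fish 20, 24 or 51 or male fish 52, 53 or 54 (highest adjusted p = 0.116). On 0% carbohydrate 3 were higher, npm2b (0.66 ± 0.15), setdb1a (0.57 ± 0.11) and dnmt3bb.2 (0.31 ± 0.07), 2.88% against 3.33% of all probe sets (2.27% higher and 1.06% lower), and 0 were lower in limma. At an unadjusted p under 0.05, 7 were higher and 7 lower on 0%. That is 13.5%, against 18.8% of all probe sets and 21% of the 8793 genes, so neither count stood above the background. The groups did not overlap there for 7 genes, 6.73% against 8.48% of all probe sets, with 4 above (5.64% of all probe sets) and 3 below (2.84%). The count on 0% was 1, setdb1a, without female fish 8 or male fish 11 or 66, each left out alone. The call of npm2b on 0% was lost without female fish 7 as well, and that of dnmt3bb.2 without female fish 10. Hist1h2a6 stood 0.89 ± 0.57 higher in females on 0% (adjusted p = 0.411), nasp 0.47 ± 0.23 (adjusted p = 0.29) and dnmt1 0.08 (adjusted p = 0.825). The sex-by-carbohydrate interaction of hist1h2a6 was 2.87 ± 0.85 and that of nasp 1.33 ± 0.35. Neither passed over all fish (adjusted p = 0.263 and 0.14), and both passed without female fish 8.

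In males carbohydrate changed 0 of the 104 genes in limma, against 0.116% of all probe sets (0.0194% lower). At an unadjusted p under 0.05 there were 13, 5 higher and 8 lower. That is 12.5%, against 8.18% of all probe sets and 9.17% of the 8793 genes. The groups of 3 and 4 males did not overlap for 8 genes, 7.69% against 6.70% of all probe sets, with 3 above on 25% (3.39% of all probe sets) and 5 below (3.30%). In females the groups did not overlap for 9, 8.65% against 4.08% of all probe sets, with 5 above on 25% (2.75% of all probe sets) and 4 below (1.34%). Of those 9 genes in females, dnmt1, nasp and npm2b passed the test, and hmga1a, smarca5, hmgn6, chd2, hmgn1b and smarca2 did not. Hmgn1b was at or below the array median on every array. Its groups nearly touched, with a highest value of 2.931 on 25% and a lowest of 2.932 on 0%.

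The 13 high mobility group genes, abundant proteins that bend DNA or loosen nucleosomes, varied widely between fish and had 0 past for carbohydrate in females (6 at an unadjusted p under 0.05, 3 higher and 3 lower, 46.2% against 12.8% of all probe sets). Hmga1a, a DNA minor groove protein, lay between 5.75 and 6.60 in females on 25% and between 5.11 and 5.71 in females on 0%, without overlap (0.70 ± 0.27, adjusted p = 0.279). Hmgn6 lay between 5.79 and 6.61 in females on 25% and between 6.75 and 7.04 in females on 0% (-0.70 ± 0.27, adjusted p = 0.29). In males hmgn6 stood at 7.63, 6.38 and 5.96 on 25% (fish 52, 53 and 54) and at 8.10, 6.84, 7.29 and 7.63 on 0% (fish 11, 26, 30 and 66), a difference of -0.81 ± 0.33 (adjusted p = 0.512). Hmgn6 was lower on carbohydrate in the means of both sexes, and passed in females without male fish 11, 52 and 66 (adjusted p = 0.0294). Hmgn2 was the second most variable of the 104 genes within groups (0.836), with 8.0 in male fish 11 and 7.69 in female fish 49. Hmgn3 followed (0.721), with 5.65, 4.67 and 6.86 in males on 25%. For hmgn6, hmgn1a, hmgn2, hmga1a and hmgb2a the 3 highest males were fish 11, 52 and 66, the fish whose intestinal genes were high. Hmgn1a was 7.85, 6.98 and 7.21 in these 3 fish, against 6.04 to 6.54 in the other males. For hmgb3b the same 3 fish were the lowest males, and the remaining genes of this paragraph's family did not all follow either order. The order was not particular to this family. Fish 11, 52 and 66 were also the highest males for h3f3d, h2az2b, smarca2 and kmt2e, among others, and the lowest for kat8. The part of these fish in the spread was not tested. Hmgb1a differed by 0.11 between the sexes.

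Several enzyme families showed no passed difference in limma. Of all probe sets 13.6% passed for sex averaged over diets (29.1% at an unadjusted p under 0.05). In the other comparisons 0.116% to 4.91% passed, so a count of 0 in a small family was near the background there. The 12 histone demethylases had 0 past in all 6 comparisons and 0 at an unadjusted p under 0.05 for sex averaged over diets, with differences between -0.17 and 0.22. For carbohydrate 1 demethylase had an unadjusted p under 0.05 in females and 1 in males. That is 8.33% each, against 12.8% and 8.18% of all probe sets. Kdm5ba, which removes methyl groups from lysine 4 of histone H3, averaged 6.21 in females on 25%, 6.38 in females on 0%, 6.34 in males on 25% and 6.51 in males on 0%. The 3 sirtuins had 0 past in limma in the 6 comparisons, and at an unadjusted p under 0.05 the single case was sirt6, a nuclear deacylase, with a sex difference of 0.28. Sirt2 differed by 0.19 and sirt3, the mitochondrial deacylase, by -0.04. The 6 acetyltransferases had 0 past (1 unadjusted for sex, kat8), and crebbpa, a coactivator acetyltransferase, averaged between 5.00 and 5.09 in all 4 groups. Hdac1, the deacetylase of several corepressor complexes, differed by -0.05 between the sexes and 0.34 between the diets in females (adjusted p = 0.76 and 0.186). The Polycomb enzyme ezh2 differed by -0.06 between the sexes, and its partners suz12a and suz12b by 0.18 and -0.09. Cbx2, which carries Polycomb binding to methylated histone H3, was higher in females by 0.20 ± 0.06 (adjusted p = 0.0356), at or below the array median on all arrays. Cbx5, a heterochromatin protein, stood 0.45 higher on carbohydrate in females and did not pass.

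Of 82 further chromatin genes outside the name rule (complex subunits, readers and chaperones, a list made with earlier results of these data known), 6 were higher and 0 lower in females, where 8.02% of all probe sets were higher and 5.57% lower. At an unadjusted p under 0.05, 16 were higher and 6 lower, 26.8% against 29.1% of all probe sets, so for sex the list was near the background. Carbohydrate raised 4 and lowered 1 in females, where 1.90% of all probe sets rose and 0.194% fell. The median sex difference of the list was 0.04, against 0.01 over all probe sets. Uhrf1, the protein that brings dnmt1 to half-methylated DNA, had 3.69, 3.95, 4.40, 4.84 and 4.78 in females on 25% and 2.91, 3.00, 3.02, 3.32 and 3.21 in females on 0%. In males it lay between 2.90 and 3.31 on 25% and between 2.68 and 3.24 on 0%, below the array median. The females on 0% were below it too, so the carbohydrate difference of uhrf1 has no exact size. As with dnmt1, only the females on 25% stood apart among the 4 groups, with 1.24 ± 0.20 for carbohydrate in females (adjusted p = 0.00178). Rcor1, a corepressor of the lysine demethylase complex, rose by 0.77 ± 0.14, ing5b by 0.71 ± 0.16 and ing2 by 0.54 ± 0.11, the last 2 being readers of histone H3 methylation in acetylase and deacetylase complexes. In females on 0% rcor1 lay between 3.00 and 3.73 and ing2 between 3.34 and 3.69, near or below the array median. The rises of rcor1 and ing2 thus have no exact size either. Ing3, a subunit of an acetyltransferase complex, was the 1 that fell in females, by 0.70 ± 0.11, and it fell by 0.73 ± 0.13 in males (adjusted p = 0.000909 and 0.0371).

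Nap1l1, a chaperone of H2A and H2B, was higher in females by 0.69 ± 0.18 (adjusted p = 0.017), and varied most in males on 25%. Within a diet nap1l1 passed on 0% (1.13 ± 0.24, adjusted p = 0.0164) and not on 25%. It had 8.34, 9.53 and 9.57 in males on 25% (fish 52, 53 and 54) and 8.05, 8.44, 8.27 and 8.13 on 0% (fish 11, 26, 30 and 66), against 9.0 to 9.80 in all females. Hira, which deposits H3.3, was higher in females by 0.28 ± 0.07 (adjusted p = 0.0116) and atrxl, an ATRX-type remodeller gene, by 0.34 ± 0.08 (adjusted p = 0.00796). Hira and atrxl also passed on 0% (0.35 and 0.47, adjusted p = 0.0453 and 0.0212) and not on 25%. H1m, the linker histone of the oocyte and one of the ovary markers, rose by 2.6 ± 0.34 with carbohydrate in females (adjusted p = 0.000327). It lay between 6.54 and 7.97 in females on 25%, between 3.66 and 5.74 in females on 0% and between 3.33 and 4.10 in males. Fish 8 and 25 were highest of the females on 0% (5.74 and 4.96), and these values are part of the ovary marker mean.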

How the data were processed

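Liver RNA of 17 zebrafish was labelled with a 3′ one-cycle kit and hybridised to Affymetrix arrays, per the labels' protocols. The deposited table holds log2 expression values made by the authors, 1 per probe set and array. The log2 scale was inferred from the range of 1.82 to 14.38, and array medians differed by at most 0.088, so the values were used as deposited. Which of MAS5, RMA, GCRMA and PLIER, all listed in the submitters' processing notes, gave these values is not stated.

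Of 15617 probe sets, 115 controls were left out. In the platform annotation 10795 probe sets had 1 gene symbol, 135 several and 4572 none. All 104 members matched RefSeq by Entrez ID, with 0 symbols changed. Another 8 probe sets with several symbols, any of them fitting the rule, were not used. A fit with limma 3.58.1 in R 4.3.3 (lmFit, eBayes) on the 4 group means gave 6 contrasts: female minus male averaged over diets and at each diet, 25% minus 0% in each sex, and the interaction (female diet difference minus the male one). Benjamini-Hochberg adjustment ran over 15502 probe sets at 0.05. The procedure was tested on simulated data.

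Named genes were, for each contrast, up to 12 higher and 12 lower members past the threshold, plus in each role class the brightest member and that with the largest sex difference, plus hdac1, dnmt1, ezh2, suz12a, suz12b, sirt1, h1f0 and nasp where measured. Others were named after their values were seen. Members, lists, tests and alternatives were chosen with earlier results of these data known. Where nothing says that fish came from separate tanks or days, p values measure the spread between these fish. The number of arrays limits the precision.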

Additional observations from a re-analysis of the deposited data

Results flagged for a closer look

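In groups of 4 or 5 fish, 7 of 111 sets of values of the 37 genes that met the naming rule held a fish far from the others, and chance flags about 1 in 20. Among females on 0%, fish 8 stood apart for npm2b at 4.93 (others 4.36 to 4.50), for hmgb1b at 4.55 (others 4.84 to 4.92) and for suz12a at 3.08 (others 3.24 to 3.31). In that group setd3 was 7.28 in fish 7 (others 6.56 to 6.70). Among males on 0%, fish 11 stood apart for h3f3d at 8.70 (others 7.97 to 8.09) and hdac1 at 6.80 (others 6.39 to 6.46). Intestinal genes were high in fish 11. Among females on 25%, kat8 was 4.32 in fish 49 (others 4.59 to 4.68). The carbohydrate difference of dnmt1 in females exceeded that in males by 1.58, the 1 member whose interaction passed (adjusted p = 0.00941).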

How the results depend on the processing

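The counts of members called were 18, 7 and 3 for sex (averaged, on 25% and on 0%), 5 and 0 for carbohydrate (females, males) and 1 for the interaction. Under other normalizations, filters, weights, probe set summaries and subsets of groups, and without male fish 11, 52 and 66, 42 of 46 such counts stayed within 1.5 times. The exceptions, whose cause was not tested, were the sex count on 0% in a fit of only the groups compared (1), and 3 counts without male fish 11, 52 and 66: 10 for sex averaged over diets, 1 for sex on 0% (kat8, lower, and not 1 of the 3) and 0 for the interaction. That last alternative was chosen after seeing the data, and leaves 2 males per diet. Leaving out 1 fish at a time gave 10 to 20, 5 to 8 and 1 to 4 for sex, 3 to 6 and 0 to 0 for carbohydrate and 1 to 3 for the interaction. The count of 10 came without male fish 53, that of 3 in females without fish 7, 10 or 27, when dnmt1, nasp and npm2b remained, and the interaction count of 3 without female fish 8. With each array centred on its median 11 were higher and 7 lower in females, against 14 and 4 as reported, with hmgn7, kat8 and setd7 newly called lower. Of the 41 dimmer probe sets of members, 4 passed for sex averaged over diets, where 13.6% of all probe sets did. Those of brd3a, brd3b and hmgb3a were higher in females and that of smarca4a lower. On 25% 1 passed for sex (chd2, lower), where 4.91% of all probe sets did, and 0 passed in the other comparisons. The means of the brd3b, hmgb3a and chd2 probe sets, 3.42, 3.45 and 3.11, were below the array medians, so these may be background. Of 234 results for single named genes under the same alternatives, 209 kept their call, 25 lost it and 0 turned, 13 of the 25 without the 3 males. No paired analysis was possible because the fish numbers are shared between no groups.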
